A study of Mus musculus with 6 samples.

Results

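The VEGF and angiopoietin paracrine factors were taken as 10 genes chosen by symbol: the ligands Vegfa, Vegfb, Vegfc and Pgf, the receptors Flt1 and Kdr, the co-receptors Nrp1 and Nrp2, and the ligands Angpt1 and Angpt2. All 10 symbols were found in the count table of 54532 genes, and 9 of them were among the 14246 genes with enough reads to be tested. RNA sequencing was performed on immortalized epicardium-derived cardiosphere-derived cells (iECDCs) of the C57BL/6 mouse, adult heart ventricle cells carried on by a lentiviral human telomerase transgene and puromycin selection. Libraries fell into control cells at passage 30 (n = 3) and induced cells of the same passage (n = 3), which were given 10 µM 5-azacytidine, an inhibitor of DNA methylation, for 3 days. By the labels the induced cells then spent 4 weeks in IMDM with 2% fetal bovine serum. The methods of the study name another basal medium and a shorter time for that culture, and routine growth of the line in richer serum. The medium, serum and time in culture of the sequenced control cells are not given in the sources used here. Drug, basal medium, serum and time in culture therefore cannot be told apart. Both groups carried the telomerase transgene and came from 1 transduced line, so the libraries give the spread between samples of this line and not between animals.

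VEGF ligands are secreted dimers that drive growth and permeability of blood and lymphatic vessels through receptor tyrosine kinases on the endothelium, and the neuropilins act beside these kinases as co-receptors. Angiopoietins act on the kinase TEK (TIE2), ANGPT1 as an agonist that stabilizes vessels and ANGPT2 as a context-dependent ligand that can block it. In the heart these factors are known mostly as signals that pass from muscle, stromal and epicardial cells to the coronary vessels.

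Total counts ranged from 19041133 to 19823369 per library, and the scaling factors of the trimmed mean of M-values (TMM) lay between 0.980 and 1.016. Of the 14246 genes tested, 64.8% passed the test in either direction at an adjusted p of 0.05, with 32.6% higher and 32.2% lower in the induced cells, and the median log2 fold change was -0.01. The cells held transcripts of the epicardial genes Upk3b, Wt1, Tcf21 and Tbx18, with 852 or more reads per group. Of 14 endothelial markers, 9 had fewer than 10 reads in every library, among them Pecam1, Cdh5, Emcn, Cldn5 and Sox17. Egfl7, Ecscr and Vwf had more, with 58 to 634 reads per group. Every CPM value below is a read count relative to the TMM-scaled library size, and every fold change is induced over control. Every FPKM is the deposited value, a fragment count relative to kilobases of exon and to a library size set by the submitters. The library sizes that these FPKM imply are not the total counts. FPKM levels and sums therefore carry a scaling between libraries that was set before deposit.

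Of the 10 members, 6 rose, 1 fell, 2 were tested and did not pass, and 1 had too few reads to test. The 7 members called, of 9 tested, stand beside the 64.8% of all tested genes that were called, a background so wide that the number of called members says little about the group. Members called higher (6) stand beside 32.6% of all tested genes, and the member called lower (1) beside 32.2%. In 7 of the 9 tested members every induced library lay on the same side of every control library, against 68.6% of all tested genes. Angpt1 entered the test only through its reads in the induced cells and Pgf only through its reads in the controls, so these counts describe the members and support no statement on the list. The median log2 fold change of the tested members was 0.61, and 3 called members, Nrp2, Angpt1 and Angpt2, exceeded 2-fold. In bulk libraries such as these, more cells of a kind and more RNA per cell cannot be told apart.

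**Figure D1:**
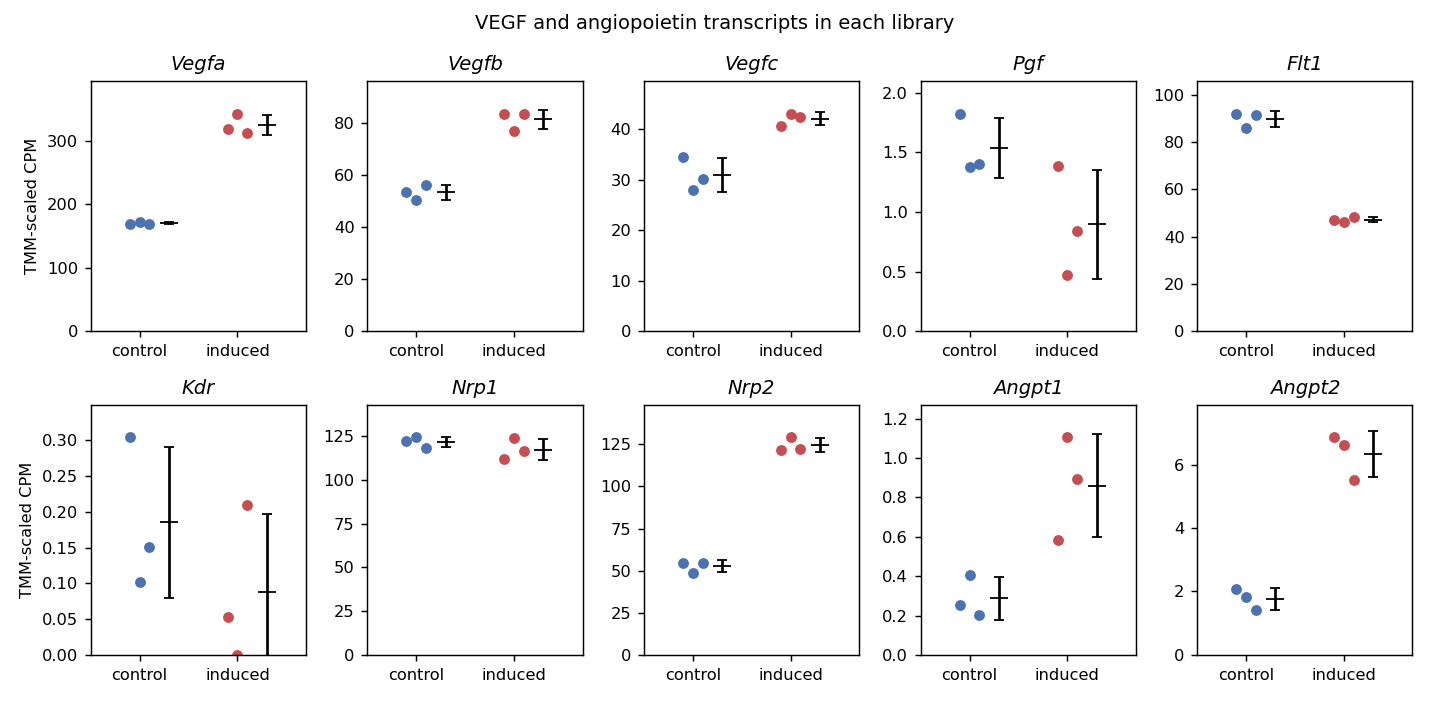
TMM-scaled CPM (vertical axes, each from 0) of the 10 members, with 1 point per library, blue for control and red for induced cells, and a black bar for mean ± SD (n = 3; the bar of Kdr is cut at 0). Red points lie above all blue points for Vegfa, Vegfb, Vegfc, Nrp2, Angpt1 and Angpt2, below them for Flt1, and among them for Pgf, Kdr and Nrp1.

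Because the drug acts on DNA methylation, which occurs at CG dinucleotides, the CG content of the members' start sites was read from RefSeq promoter windows (GRCm38.p6) of 300 bases, from 250 before to 50 after each start. These windows were found for 8 of the 10 members, as 10 entries. The number of CG dinucleotides was 37 in the window of Nrp2, 35 in Vegfc, 31 in Vegfb, 29 in Flt1, 23 and 7 at the starts of Pgf, 19 in Kdr, 16 and 10 at those of Vegfa, and 14 in Nrp1, beside a median of 7 over 32851 windows of all genes. Nrp2 stood at percentile 94.4 of these windows and the first Vegfa start at 67.0. The upstream bases of Vegfa, Vegfc and Nrp2, which rose, and of Flt1, which fell, are shown. Their windows run from percentile 67.0 to 94.4 and cover both directions. The windows with fewer CG, those of Nrp1 and of the second starts of Vegfa and Pgf, are not shown. Each is written 5′ to 3′ along the strand of the gene, in lower case, with every CG in capitals.
Vegfa, chr17:46032378-46032627, minus strand: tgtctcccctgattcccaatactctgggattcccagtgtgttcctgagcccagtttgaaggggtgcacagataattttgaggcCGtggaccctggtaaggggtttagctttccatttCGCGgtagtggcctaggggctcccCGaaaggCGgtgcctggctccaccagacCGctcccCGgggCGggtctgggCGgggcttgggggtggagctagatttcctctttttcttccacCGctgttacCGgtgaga
Vegfc, chr8:54077282-54077531, plus strand: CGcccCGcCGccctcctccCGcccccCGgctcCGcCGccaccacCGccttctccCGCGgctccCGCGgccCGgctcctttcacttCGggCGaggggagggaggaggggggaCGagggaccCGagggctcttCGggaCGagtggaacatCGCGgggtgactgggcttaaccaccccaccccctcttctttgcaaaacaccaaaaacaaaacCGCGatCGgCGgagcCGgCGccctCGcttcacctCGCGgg
Nrp2, chr1:62703067-62703284, plus strand: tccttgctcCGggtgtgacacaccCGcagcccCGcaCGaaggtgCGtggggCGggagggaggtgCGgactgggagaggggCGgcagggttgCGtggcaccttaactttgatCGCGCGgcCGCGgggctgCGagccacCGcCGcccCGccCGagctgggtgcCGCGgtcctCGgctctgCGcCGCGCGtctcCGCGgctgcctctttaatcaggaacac
Flt1, chr5:147726012-147726261, minus strand: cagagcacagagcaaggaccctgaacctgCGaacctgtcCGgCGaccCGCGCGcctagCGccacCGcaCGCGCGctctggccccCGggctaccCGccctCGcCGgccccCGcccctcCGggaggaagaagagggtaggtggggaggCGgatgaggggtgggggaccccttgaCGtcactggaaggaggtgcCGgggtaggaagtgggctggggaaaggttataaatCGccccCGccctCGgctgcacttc
The 250 bases of Vegfa held 11 CG, the 250 of Vegfc 30, the 218 of Nrp2 28 and the 250 of Flt1 23. The GC box (GGGCGG, or CCGCCC on the other strand), the core of sites for the SP1 family, was present in every member window other than the second of Pgf, and in 35.7% of all windows. The letters ACGTG, or CACGT on the other strand, are a form of the core of hypoxia-response elements. They were present in 19.6% of all windows and, among the members, only in the window of the second Vegfa start. The other form, GCGTG or CACGC, was not counted, and the printed bases of Nrp2 and Flt1 hold it. These counts and matches describe letters in short windows. The background holds the windows of all genes, whether or not these cells express them. It therefore cannot set the members apart from other expressed genes. DNA methylation was not measured, and the part of CG content in any change below was not tested.

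Vegfa, the main inducer of blood vessel growth, rose 1.91-fold. The gene (ENSMUSG00000023951) lies on chromosome 17, 46016993 to 46032369 of mm10, minus strand. Its CPM was 169.5, 171.7 and 169.3 in the control libraries and 318.8, 342.7 and 312.8 in the induced libraries. The lowest induced library was far above the highest control, and the control libraries were nearly equal. The means were 170.2 ± 1.33 and 324.8 ± 15.8 CPM (SD, n = 3 each), a log2 fold change of 0.93 (SE 0.05, 95% interval of the fold 1.78 to 2.05, edgeR adjusted p = 6.45e-12). The change rested on 10093 control and 18481 induced reads.

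Vegfb, a ligand of FLT1 linked to cardiac muscle metabolism, rose 1.52-fold. The gene (ENSMUSG00000024962) lies on chromosome 19, 6982473 to 6987651, minus strand. The control libraries gave 53.7, 50.5 and 56.3 CPM and the induced libraries 83.7, 77.1 and 83.7 CPM. The groups were again apart, with induced replicate 2 the lowest of its group. Mean CPM went from 53.5 ± 2.91 to 81.5 ± 3.82 (SD, n = 3 each), a log2 fold change of 0.61 (SE 0.06, edgeR adjusted p = 3.64e-08).

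Vegfc, the main growth factor of lymphatic vessels and a ligand of FLT4, rose 1.36-fold, the smallest change among the members that were called. The gene (ENSMUSG00000031520) lies on chromosome 8, 54077606 to 54187096, plus strand. Its CPM was 34.6, 28.1 and 30.2 in the control libraries against 40.7, 43.1 and 42.6 in the induced libraries. Control replicate 1 came nearest to the induced range and the groups stayed apart. The means were 30.9 ± 3.30 and 42.1 ± 1.30 CPM (SD, n = 3 each), a log2 fold change of 0.44 (SE 0.07, edgeR adjusted p = 3.24e-05).

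Pgf, placental growth factor and a further ligand of FLT1, was the ligand with few reads. The gene (ENSMUSG00000004791) lies on chromosome 12, 85166635 to 85177790, minus strand. It had 36, 27 and 28 reads in the control libraries and 26, 9 and 16 in the induced libraries, or 1.82, 1.38 and 1.40 CPM against 1.38, 0.473 and 0.839. Induced replicate 1 reached the level of the lower controls, and the other induced libraries lay below all controls. The log2 fold change was -0.77 (SE 0.35, 95% interval -1.50 to -0.04), with an edgeR p of 0.0391 before and 0.0592 after adjustment, so Pgf did not pass. The pooled reads, 91 and 51, gave a ratio of 0.584 with a counting interval of 0.406 to 0.832, which leaves out the spread between samples. Without induced replicate 1 the log2 fold change was -1.22 and passed (edgeR adjusted p = 0.0108). With all libraries kept, Pgf also passed on library totals alone, with no filter and with the replicate number as a block (edgeR adjusted p = 0.0477, 0.0473 and 0.0438). The p-values of the fit with no filter are not on the footing of the main fit. For Vegfa the edgeR adjusted p was 4.26e-72 with no filter and 6.45e-12 in the main fit, at a similar SE. The call thus lies at the threshold and turns on that library and on these settings.

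**Figure D2:**
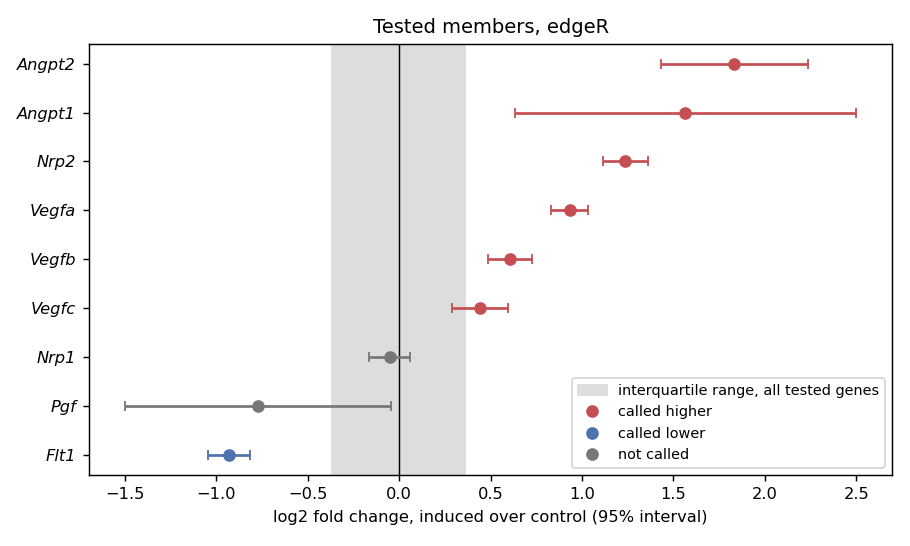
Log2 fold change of the 9 tested members (horizontal axis, induced over control) with 95% intervals from edgeR, red for called higher, blue for called lower and grey for not called. The grey band is the interquartile range of all tested genes, from -0.37 to 0.36. Vegfa, Vegfb, Nrp2, Angpt1 and Angpt2 have intervals wholly right of the band and Flt1 wholly left of it, while the intervals of Vegfc, Pgf and Nrp1 reach into it.

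Per gene length, Vegfa was the highest member in both groups. Its FPKM was 39.3 ± 0.232 in control and 75.7 ± 3.57 in induced cells (SD, n = 3 each), percentiles 90.5 and 95.2 of the tested genes. Vegfb followed at 33.0 ± 1.86 and 50.7 ± 2.45 FPKM, and Vegfc at 12.5 ± 1.35 and 17.2 ± 0.509 FPKM. Pgf was far lower, at 0.524 ± 0.0860 and 0.309 ± 0.158 FPKM. Summed over these 4 ligands, the level went from 85.4 ± 2.50 to 143.8 ± 1.33 FPKM, with all induced libraries above all controls. Vegfa held 46.1 ± 1.65% of this sum in control and 52.6 ± 1.99% in induced cells, a difference of 6.50 percentage points (exact two-sided permutation p = 0.1, the smallest that 3 against 3 libraries allow). The shares of Vegfb (38.6% to 35.3%), Vegfc (14.6% to 11.9%) and Pgf (0.612% to 0.215%) were lower in all induced libraries than in all controls, with the same exact p of 0.1. Vegfb and Vegfc thus rose in level and held a smaller part of the sum of these 4 ligands.

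The ratios of FPKM within a library, which no scaling between libraries can move, gave the same order. The Vegfb to Vegfa ratio had a geometric mean of 0.838 in control and 0.670 in induced cells. The Vegfc to Vegfa ratio went from 0.317 to 0.227 and the Pgf to Vegfa ratio from 0.0132 to 0.00372. None of these ratios overlapped between groups, and with 5 ratios tested each gave an exact permutation p of 0.1 and an adjusted p of 0.125, which this number of libraries could not bring lower.

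One ligand of the family outside the chosen members, Vegfd, was more abundant than any of them. It is named after its values were seen, because the sum of VEGF ligands turns on it. VEGFD is a second lymphatic growth factor that binds FLT4. Its FPKM was 132.6, 131.1 and 133.9 in control and 139.5, 143.0 and 141.8 in induced cells, with a log2 fold change of 0.08 (SE 0.04, 95% interval -0.01 to 0.17, edgeR adjusted p = 0.10). With Vegfd counted, it made up 60.8 ± 0.503% of VEGF ligand FPKM in control and 49.6 ± 0.282% in induced cells, and Vegfa 18.1 ± 0.421% and 26.5 ± 1.03%. On that sum the share of Vegfb was higher in all induced libraries (15.1% to 17.8%, exact permutation p = 0.1) and that of Vegfc overlapped (5.74% and 6.02%, exact permutation p = 0.4), so the direction of both shares turns on whether Vegfd is counted. The largest VEGF ligand transcript of these cells therefore did not pass the test while Vegfa, Vegfb and Vegfc below it rose.

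**Figure D3:**
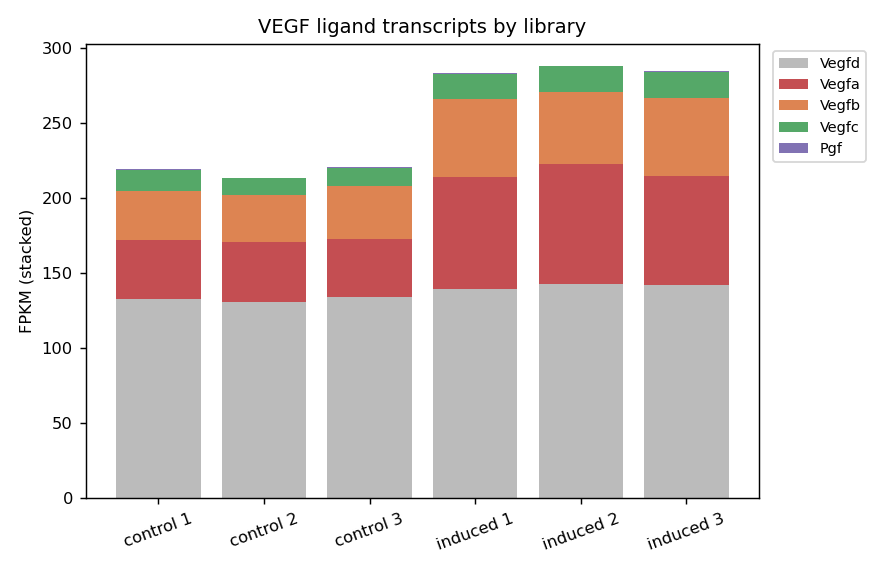
Stacked FPKM (vertical axis, from 0) of the VEGF ligand transcripts in each of the 6 libraries, with Vegfd at the bottom and then Vegfa, Vegfb, Vegfc and Pgf. The grey Vegfd block is of similar height in all libraries, the red Vegfa block is taller in the induced libraries, and Pgf, at no more than 0.623 FPKM, is too thin to see.

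Among the receptors and co-receptors, Flt1 fell, Nrp2 rose, Nrp1 did not pass the test and Kdr had too few reads for one. Flt1 (VEGFR1), which binds VEGFA, VEGFB and PGF tightly and limits the VEGFA that reaches KDR, was a moderately abundant transcript in control cells. The gene (ENSMUSG00000029648) lies on chromosome 5, 147561604 to 147726011, minus strand. Its CPM was 91.9, 86.0 and 91.2 in the control libraries and 46.9, 46.1 and 48.1 in the induced libraries. Every induced library lay far below every control, and each group was tight. The means were 89.7 ± 3.21 and 47.1 ± 0.997 CPM (SD, n = 3 each), a level 1.91 times lower in the induced cells, and the log2 fold change was -0.93 (SE 0.05, edgeR adjusted p = 2.90e-11). The counts were made per gene, so transcripts for the membrane receptor and for its soluble form were not separated.

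Kdr (VEGFR2), the kinase that carries most VEGFA signalling in endothelium, was hardly detected. The gene (ENSMUSG00000062960) lies on chromosome 5, 75932827 to 75978458, minus strand. It had 6, 2 and 3 reads in the control libraries and 1, 0 and 4 in the induced libraries, where 3 reads correspond to 0.150 to 0.159 CPM. These counts overlap and were too low to test. The pooled ratio, 5 against 11 reads, was 0.474 with a counting interval of 0.129 to 1.48, so a difference in Kdr was not detectable at this depth.

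Nrp1, a co-receptor for VEGFA and for semaphorin 3A, did not pass the test, and its interval was narrow. The gene (ENSMUSG00000025810) lies on chromosome 8, 128358604 to 128503363, plus strand. Its CPM was 122.2, 124.2 and 118.3 in the control libraries and 111.7, 123.8 and 116.5 in the induced libraries. The groups overlapped, with means of 121.6 ± 3.01 and 117.3 ± 6.10 CPM (SD, n = 3 each). The log2 fold change was -0.05 (SE 0.05, 95% interval -0.16 to 0.06, edgeR adjusted p = 0.406), or a fold of 0.965 with an interval from 0.893 to 1.04.

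Nrp2, a co-receptor for VEGFC and for semaphorin 3F, rose 2.36-fold. The gene (ENSMUSG00000025969) lies on chromosome 1, 62703285 to 62818695, plus strand. Its CPM was 54.7, 48.8 and 54.8 in the control libraries and 121.9, 129.1 and 122.2 in the induced libraries. All induced libraries were well above every control. The means were 52.8 ± 3.43 and 124.4 ± 4.11 CPM (SD, n = 3 each), a log2 fold change of 1.24 (SE 0.06, edgeR adjusted p = 1.65e-12). The FPKM ratio of Nrp2 to Nrp1 within a library had a geometric mean of 0.358 in control and 0.877 in induced cells (exact permutation p = 0.1, adjusted over 5 ratios 0.125), so the co-receptors went from unequal to nearly equal transcript levels.

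The order of FPKM levels changed accordingly. In control cells Vegfc and Nrp1 overlapped at 12.5 and 12.3 FPKM, Flt1 came next at 6.58 ± 0.247, and Nrp2 lay below it at 4.42 ± 0.295. In induced cells Nrp1 at 12.0 ± 0.604 and Nrp2 at 10.5 ± 0.330 both stood above Flt1 at 3.48 ± 0.0779 FPKM. Nrp2 and Flt1 thus traded places, with no overlap of their libraries in either group. Kdr was the lowest member in both groups, at 0.0203 ± 0.0116 and 0.00969 ± 0.0121 FPKM. Among the low members, Pgf overlapped Angpt2 in control cells and Angpt1 in induced cells, and the other neighbours in the order did not overlap.

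**Figure D4:**
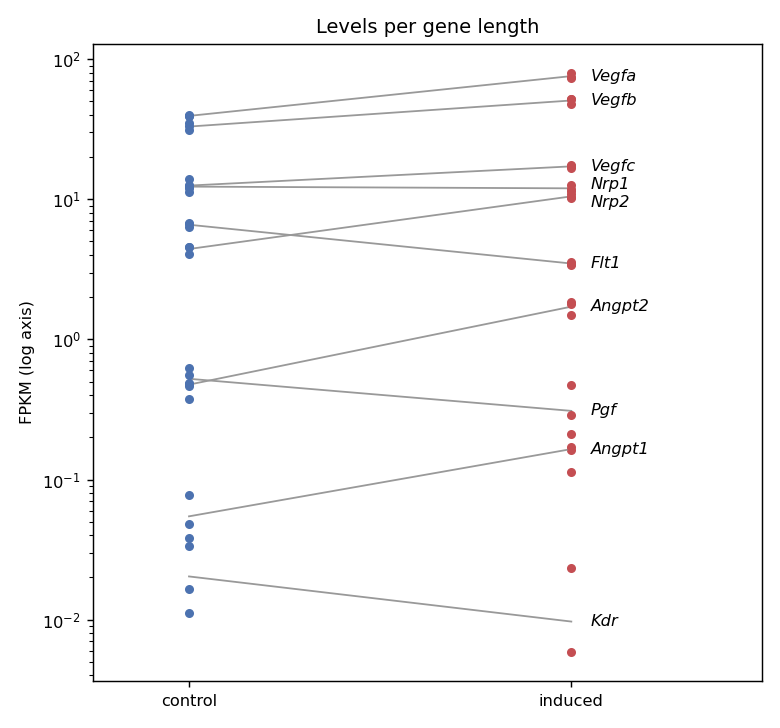
FPKM (vertical axis, log scale) of the 10 members in control (left, blue) and induced (right, red) cells, with 1 point per library and a grey line joining the group means. The lines of Nrp2 and Flt1 cross, Angpt2 rises past Pgf, and the induced library in which Kdr had 0 reads cannot be drawn on this axis.

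Both angiopoietins rose from low levels. Angpt2 (ENSMUSG00000031465, chromosome 8, 18690263 to 18741562, minus strand), the ligand that can block TEK, had 41, 36 and 28 reads in the control libraries and 129, 126 and 105 in the induced libraries. That was 2.08, 1.84 and 1.40 CPM against 6.86, 6.63 and 5.50 CPM, with no overlap. The means were 1.77 ± 0.342 and 6.33 ± 0.724 CPM (SD, n = 3 each), a 3.56-fold rise with a log2 fold change of 1.83 (SE 0.19, edgeR adjusted p = 1.12e-07). This was the largest fold change among the members.

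Angpt1 (ENSMUSG00000022309, chromosome 15, 42424723 to 42676977, minus strand), the agonist of TEK, had 5, 8 and 4 reads in the control libraries and 11, 21 and 17 in the induced libraries. The groups did not overlap, and the wide gap between induced replicates 1 and 2 shows how few reads carry the value. Mean CPM was 0.287 ± 0.108 and 0.860 ± 0.261 (SD, n = 3 each). The fitted fold was 2.96, with a 95% interval of 1.55 to 5.65, and the log2 fold change was 1.56 (SE 0.44, edgeR adjusted p = 0.00485). Of its 5205 exon bases, 737 (14.2%) are shared with the gene Gm17473, and no source used here says whether reads were counted by strand, so the Angpt1 value is uncertain.

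The FPKM ratio of Angpt2 to Angpt1 was 11.6, 6.35 and 9.87 in the control libraries and 16.5, 8.46 and 8.71 in the induced libraries. These overlapped, with geometric means of 8.98 and 10.7 and a log2 difference of 0.25 (exact permutation p = 0.6). Leaving out induced replicate 1 took that difference to -0.07, and leaving out control replicate 2 brought it close to 0. The difference therefore turns on single libraries. The receptor of both, Tek, had 3, 2 and 2 reads in control and 9, 10 and 13 in induced libraries, too few for the filter. The pooled ratio for Tek was 4.77 (counting interval 2.07 to 12.8), and without the filter its log2 fold change was 2.20 (edgeR adjusted p = 0.00477). As for Pgf, a p-value from the fit with no filter is not on the footing of the main fit. Tie1, the partner kinase, had 0 reads in all 6 libraries. Tek and Tie1 were named after their values were seen, as the receptors of these ligands.

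The rest of the pathway, 15 further genes of ligands, receptors and processing proteins, gave 13 tested, of which 6 rose, 2 fell and 5 did not pass, with a median log2 fold change of 0.11. The counts of this list and of those below stand beside 32.6% higher and 32.2% lower over all tested genes. Flt4 (VEGFR3), the receptor of VEGFC and VEGFD, rose from a mean of 18.4 ± 1.76 CPM to 31.7 ± 1.84 CPM (log2 fold change of 0.79, adjusted p = 1.23e-07 in edgeR). Ccbe1, a cofactor for cleavage of VEGFC, rose from 7.60 ± 0.190 to 72.3 ± 5.76 CPM (log2 fold change 3.25), while Adamts3, the protease it assists, had a mean of 1.26 ± 0.414 in control and 0.422 ± 0.161 CPM in induced cells and fell (log2 fold change of -1.57, adjusted p = 0.00201 in edgeR). Pcsk5, a proprotein convertase able to process VEGFC, went from 0.371 ± 0.0562 to 21.0 ± 0.878 CPM (log2 fold change 5.80), and Furin, another such convertase, had a log2 fold change of -0.01 and did not pass. Adamts3 entered the test only through its control reads (34, 18 and 23 against 11, 5 and 8) and Pcsk5 only through its induced reads (8, 6 and 8 in control), and Furin was named after its value was seen. Angpt4, a further angiopoietin, rose from 2.90 ± 0.614 to 6.20 ± 0.354 CPM (log2 fold change 1.10), and Ptprb, the phosphatase that restrains TEK, fell from a mean of 20.5 ± 1.54 CPM to 16.4 ± 1.97 CPM (log2 fold change of -0.32, adjusted p = 0.00648 in edgeR). Shb, an adaptor of KDR, had a log2 fold change of 0.76, and Svep1, an extracellular protein needed for lymphatic vessels, one of 0.12 that passed narrowly (edgeR adjusted p = 0.0445).

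Neuropilins also bind secreted semaphorins and signal through plexins, and of 12 such genes tested, 6 rose, 4 fell and 2 did not pass (median log2 fold change 0.32). Sema3g, among those that fell, was named after its value was seen. It entered the test only through its control reads (14, 12 and 15 against 6, 4 and 4). Sema3c rose from 30.1 ± 1.63 to 145.4 ± 9.02 CPM, a log2 fold change of 2.27, and the plexins Plxna2 and Plxna4 had log2 fold changes of 1.52 and 2.30. Of the other 3 plexins, named after their values were seen, Plxna3 fell (log2 fold change -1.66), Plxnd1 fell (-0.61) and Plxna1 did not pass (0.07). Sema3f, a semaphorin that binds NRP2, rose with a log2 fold change of 1.17. Sema3a, which binds NRP1, fell with one of -0.96 (edgeR adjusted p = 4.26e-05). Neither is the only secreted semaphorin that can bind a neuropilin. Among the others, Sema3b (2.34) and Sema3d (0.58) rose beside Sema3c, Sema3g (-1.47) fell and Sema3e (0.07) did not pass. All these semaphorins other than Sema3c were named after their values were seen. Of 7 angiopoietin-like genes, relatives that do not bind TEK, 5 were tested, 4 rose and 1 fell (median 0.73). The gene that fell, Angptl8, was named after its value was seen. It entered the test only through its control reads (16, 17 and 18 against 8, 7 and 1). Angptl7 rose from 8.63 ± 1.08 to 105.7 ± 3.03 CPM, Angptl4, an inhibitor of lipoprotein lipase, had a log2 fold change of 0.73, and Angptl6 one of 1.20.

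Vegfa is a textbook target of the hypoxia-inducible factors (HIF), so their machinery and other targets were counted. Of 10 genes of the machinery, 9 were tested, 5 rose, 1 fell and 3 did not pass (median log2 fold change 0.35). Epas1, which encodes a HIF alpha subunit, rose from a mean of 11.1 ± 0.448 CPM to 82.7 ± 3.60 CPM (log2 fold change of 2.90, adjusted p = 6.42e-17 in edgeR). Hif1a, the other main alpha subunit and named after its value was seen, had 438.1 ± 6.89 and 441.3 ± 45.4 CPM (log2 fold change 0.01, edgeR adjusted p = 0.885). Vhl, part of the ligase that degrades HIF alpha, and Egln3, a hydroxylase that marks it, had log2 fold changes of 0.79 and 1.06. Among 20 hypoxia target genes, all tested, 14 rose, 2 fell and 4 did not pass, with a median of 0.35. Over all tested genes 32.6% were higher and 32.2% lower. Adm, Ndrg1 and Car9, those with the smallest p, had log2 fold changes of 1.00, 2.12 and 3.74. Eno1 (-0.36) and Pfkfb4 (-1.24) fell, and Slc2a1 (0.03), Pgk1 (0.07), Hk2 (0.08) and Kdm3a (-0.03) did not pass. These last genes were named after their values were seen. HIF proteins and oxygen were not measured, and their part in the Vegfa change was not tested.

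Of 13 secreted proteins listed as binding VEGF or acting on vessel growth, all tested, 8 rose, 3 fell and 2 did not pass (median log2 fold change 0.75), with Sema3f counted here as well. Most are known inhibitors, but the list also holds Ccn2 and Hspg2, a VEGF-binding matrix protein and a proteoglycan, and Vash2, which is known to promote vessel growth and was one of those that fell (log2 fold change -2.58), so the counts are not counts of inhibitors. These 3 genes were named after their values were seen. Thbs1 (thrombospondin 1) fell from 4584 ± 164.8 to 1609 ± 81.3 CPM, a log2 fold change of -1.51. Timp3, which can block VEGFA binding to KDR, rose from 606.4 ± 1.08 to 2481 ± 118.4 CPM, and Dcn (decorin) from 468.7 ± 21.4 to 2138 ± 95.6 CPM. Thbs2, the other thrombospondin of the list, rose (log2 fold change 0.75), as did Sparc (1.04). Both were named after their values were seen. The induced cells thus had more transcripts of Vegfa, Vegfb and Vegfc. They also had more of Timp3, Dcn, Thbs2 and Sparc, and fewer of Thbs1 and Vash2.

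**Figure D5:**
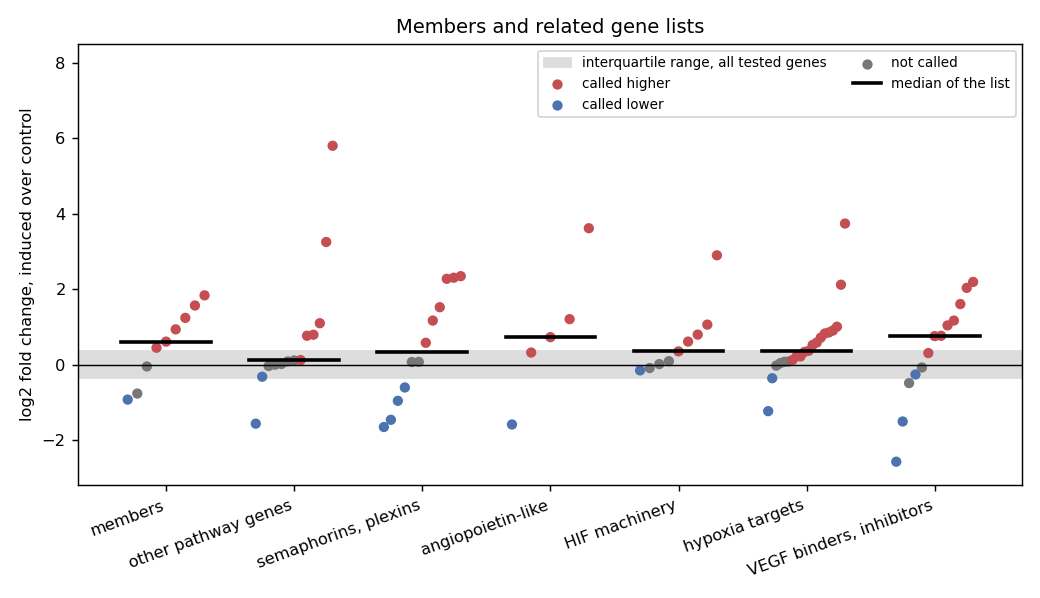
Log2 fold change (vertical axis, induced over control) of the tested members and of the tested genes in 6 related lists, with 1 point per gene, red for called higher, blue for called lower and grey for not called, a black line for the median of each list, and a grey band for the interquartile range of all tested genes. Every list holds red points above the band, and every list also holds at least 1 blue point.

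Markers of other cells were read beside these values, with Tek and Tie1 counted among the endothelial ones as well. Of 14 endothelial markers, 3 (Tie1, Cldn5 and Sox17) had 0 reads in all libraries and 9, these included, had fewer than 10 reads in every library. Their summed level was 19.5 to 20.7 CPM in control and 19.4 to 22.3 CPM in induced libraries, almost wholly Egfl7, which rose (log2 fold change 0.37), and Ecscr, which fell (log2 fold change -0.46). Vwf, the other tested marker, had a log2 fold change of -0.37 and did not pass (edgeR adjusted p = 0.345). Pecam1 had 3 and 6 reads per group and Cdh5 1 and 1, so Vegfa, Flt1 and Nrp2 were measured in cells with almost no transcripts of either gene. Of 8 leukocyte markers, 5, among them Ptprc, had 0 reads in every library, Coro1a did not pass (log2 fold change 0.36), and Cd68, a lysosomal gene, rose from 1.95 ± 0.217 to 29.2 ± 2.77 CPM, which took the summed level from 2.13 to 3.21 CPM in control to 26.9 to 32.8 CPM in induced libraries. Of 8 pericyte and smooth muscle markers, 6 were tested, 1 rose and 5 fell (summed level 378.7 to 387.3 CPM and 279.3 to 292.3 CPM), with log2 fold changes of -2.69 for Kcnj8, -1.34 for Notch3 and 2.79 for Myh11. Abcc9, among those that fell, was named after its value was seen. It entered the test only through its control reads (34, 54 and 44 against 3, 13 and 2). All 7 cardiosphere and epicardial markers were called, 5 higher and 2 lower (summed level 851.4 to 862.5 CPM and 1584 to 1739 CPM), with log2 fold changes of 1.89 for Upk3b, 1.34 for Wt1 and 1.49 for Tcf21. The markers that fell, named after their values were seen, were Tbx18, an epicardial transcription factor (log2 fold change -0.33, edgeR adjusted p = 0.000429), and Ly6a, which encodes SCA-1 (-0.57, edgeR adjusted p = 2.89e-05). The part of these shifts in the changes of the VEGF and angiopoietin genes was not tested.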

How the data were processed

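Total RNA of 3 control and 3 induced samples, described by the labels as separate samples, was made into mRNA sequencing libraries with the NEBNext Ultra kit. The authors deposited 1 table that holds, for every gene, unnormalized read counts and FPKM values of each library, and their own fold changes, p-values and gene ontology results, which were not used here. The submitters' processing notes name HISAT2 2.0.5, featureCounts 1.5.0-p3, DESeq2 1.16.1 and mm10. The strand setting of the counting is not given in the sources used here. FPKM in the deposited table were used for levels, shares and ratios, and in the limma alternatives.

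Counts were tested with edgeR 4.0.16 (R 4.3.3) by its quasi-likelihood test, TMM scaling and Benjamini-Hochberg adjustment over the 14246 of 54532 genes kept by filterByExpr (minimum count 10, 99.9% of reads), with an adjusted p of 0.05 as threshold. Ratios and shares were tested with exact two-sided permutation of the 6 libraries. The edgeR fit was also run on simulated counts in which few genes changed, as many up as down, with the same dispersion for every gene. That run does not show how the fit behaves where most genes change, as here. Intervals of pooled reads cover counting error only. p-values measure the spread between these samples, which may be technical. No pair of libraries agreed within sampling noise (chi-square per degree of freedom 2.56 to 8.91). The text names all members, every called gene of the rest of the pathway, and from each other list the 3 tested genes with the smallest p, and says where a gene was added. The members and lists were chosen with earlier results of these data known. Gene positions are those of the deposited table, and exon overlaps came from GENCODE M21 (GRCm38). Alternatives were DESeq2 1.42.0, median-ratio and library-total scaling, no filter and a stricter filter (CPM over 1 in 3 libraries), a fit with the replicate number as a block (replicate block), limma 3.58.1 on log2 of FPKM plus 0.1 or 1, a threshold of 0.01, and leaving out each library.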

Additional observations from a re-analysis of the deposited data

How the results depend on the processing

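Of 134 values of the members under alternatives, 0 reversed and 4 changed their call, all of Pgf. Pgf passed with library totals alone (log2 fold change -0.81), with no filter (-0.76), with the replicate block (-0.81, edgeR adjusted p = 0.0438) and without induced replicate 1, and leaving out each library gave -1.22 to -0.47. Members called lower were then 2 in each of these 4 settings, and 1 to 2 with libraries left out. The replicate numbers did not pair the libraries (correlations of deviations -0.05, -0.04 and 0.04), and the replicate block changed no other member's call. Angpt1 failed the stricter filter, and its log2 fold change ran from 0.14 on log2(FPKM + 1), which shrinks low genes by construction, to 1.89 with a library left out. Angpt2 ran from 0.88 on that scale to 1.97. Endothelial markers called were 5 with no filter against 2. The HIF machinery gene called lower (Arnt2) was lost without control replicate 1, without induced replicate 3 and at the threshold of 0.01. Under the stricter filter the angiopoietin-like genes called lower were 0 against 1, and those of the rest of the pathway 1 against 2, as on log2(FPKM + 0.1). The Angpt2 to Angpt1 log2 difference was 0.89 with FPKM + 0.1 and -0.07 to 0.43 with libraries left out. With FPKM + 1 the Pgf to Vegfa difference was -1.15 and the Nrp2 to Nrp1 difference 1.12. The Vegfa share difference was 8.46 percentage points with Vegfd counted, an alternative chosen after seeing the data. Of 508 values of the 34 other genes named by rule, 9 changed their call (Svep1 8, Ptprb 1) and 0 reversed. Depth limits Kdr, Tek, Angpt1 and Pgf. Values for the 7 called members rest on 1 line and 3 libraries per group.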
